A study of Homo sapiens with 6 samples.

Results

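CpG methylation was examined at 9 imprinted loci, DIRAS3, PEG13, L3MBTL1, NAP1L5, INPP5F, RB1, NNAT, FAM50B and ZDBF2. They are grouped here as loci with single-gene control regions rather than one shared by a cluster of genes. The members were chosen by name from 63827 annotated genes, a choice made with earlier results of these data known. An interval ran from 5 kb before to 5 kb after each gene, and the 9 intervals held 1128 of the 5286849 tiles of 500 bp on chromosomes 1 to 22 and X. A control region farther from its gene, as may hold for ZDBF2, would lie outside them and was not examined. Whole-genome bisulfite sequencing covered 3 conventional and 3 reset libraries of H9, a human line derived from an embryo and long established in culture. Conventional cells were maintained in medium with 20% KSR, a serum replacement, and 10 ng/ml bFGF. Reset cells carried doxycycline-inducible NANOG and KLF2 transgenes and were maintained, after doxycycline had been withdrawn, in t2iL+Gö, which holds 1 µM CHIR99021 (an inhibitor of GSK3), 1 µM PD0325901 (an inhibitor of MEK), human LIF and 5 µM Gö6983 (an inhibitor of protein kinase C). Whether the conventional cells carried the transgenes is not given in the sources used here. Both kinds of culture were grown on mouse feeder cells in 5% oxygen. The study calls the libraries biological replicates. It is also not given whether the reset libraries came from separate resettings. The p-values of the model below rest on call counts and on a spread between these libraries that is pooled in part over all features.

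In genomic imprinting one parental copy of a control region is methylated in the germline and the other is not, and the difference is carried through the demethylation of the early embryo. A control region in which 1 of the 2 copies is methylated therefore reads near the middle of the scale in bulk DNA, between the fully methylated surroundings and an unmethylated CpG island. ZFP57, a zinc-finger protein that binds the methylated hexamer TGCCGC and recruits TRIM28, is a known guard of such regions. Several of the members are retrogenes or transcripts within an intron of another gene, with a control region at their own promoter. The files hold calls per cytosine and no alleles, and in bulk DNA a region methylated on 1 copy in every cell and a region methylated on both copies in some of the cells cannot be told apart.

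The stretches that the results turn on are shown first. Each is at most 300 bases of GRCh37, plus strand, written 5′ to 3′, with CpG sites in capitals. The FAM50B stretch, chr6:3850101-3850400, lies in the coding sequence of FAM50B and is the centre of a tile that stayed at an intermediate level in reset cells. The NAP1L5 stretch, chr4:89618601-89618900, lies in the coding sequence of NAP1L5, which is on the minus strand, and the INPP5F stretch, chr10:121577601-121577900, lies in an intron of INPP5F. Both come from regions that lost their methylation.
FAM50B: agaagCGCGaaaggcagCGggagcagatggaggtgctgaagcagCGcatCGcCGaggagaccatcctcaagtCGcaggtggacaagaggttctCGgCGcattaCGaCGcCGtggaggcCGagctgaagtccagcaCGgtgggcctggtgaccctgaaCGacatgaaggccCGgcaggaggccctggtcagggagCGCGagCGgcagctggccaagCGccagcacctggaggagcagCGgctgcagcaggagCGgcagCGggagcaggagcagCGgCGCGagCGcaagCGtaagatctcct
NAP1L5: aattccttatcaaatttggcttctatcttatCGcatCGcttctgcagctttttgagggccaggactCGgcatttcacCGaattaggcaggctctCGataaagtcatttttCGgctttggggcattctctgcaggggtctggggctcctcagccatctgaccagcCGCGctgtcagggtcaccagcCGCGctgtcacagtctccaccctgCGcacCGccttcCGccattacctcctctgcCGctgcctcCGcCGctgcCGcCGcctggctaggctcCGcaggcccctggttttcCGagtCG
INPP5F: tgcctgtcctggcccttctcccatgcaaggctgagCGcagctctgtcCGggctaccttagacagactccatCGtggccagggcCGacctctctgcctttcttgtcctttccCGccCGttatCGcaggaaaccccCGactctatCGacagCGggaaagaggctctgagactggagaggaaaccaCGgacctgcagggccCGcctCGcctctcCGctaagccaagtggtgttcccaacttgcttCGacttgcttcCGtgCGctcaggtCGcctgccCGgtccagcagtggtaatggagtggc

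In the FAM50B stretch, with 28 CpGs, 57.9% of 195 pooled calls were methylated in conventional cells and 53.6% of 166 calls in reset cells, and each of the 28 CpGs had a methylated call in reset cells. In the NAP1L5 stretch, with 21 CpGs, 52.8% of 142 calls were methylated in conventional cells and 0.935% of 107 calls in reset cells, where 20 of the 21 CpGs had no methylated call. In the INPP5F stretch, with 19 CpGs, the share fell from 41.7% of 144 calls to 3.35% of 179 calls, and 13 of the 19 CpGs had no methylated call in reset cells. All 3 stretches were at a middle level in conventional cells and only that of FAM50B was in reset cells. All are rich in CpG and in G and C (67%, 59.7% and 62%). TGCCGC, counted on both strands, was present 2 times in the FAM50B stretch, 2 times in the NAP1L5 stretch and not in the INPP5F stretch.

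The members were set against a genome-wide loss. The conventional libraries held 92023996 to 98004161 calls, at 3.28 to 3.49 calls per CpG, and the reset libraries held 70329213 to 80199615 calls, at 2.51 to 2.86 calls per CpG. The methylation level, the percentage of calls that were methylated, was 84.2 to 84.5% in conventional libraries and 29.5 to 30.3% in reset libraries. Over all tiles tested the median change was a fall of 55.2 percentage points. Calls per CpG within 500 kb of each member, relative to the autosomes, had a reset to conventional ratio of 0.912 (NAP1L5) to 1.08 (L3MBTL1). At this depth a single CpG has too few calls for a level, so levels are given over tiles, promoters and longer stretches.

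All 9 intervals had a lower level in reset cells, but by unequal amounts. The interval of DIRAS3, which encodes a RAS-related GTPase known as a growth suppressor, stood at 74.9%, 79.8% and 73.6% in the 3 conventional libraries and at 45.9%, 46.5% and 48.1% in the reset libraries, a loss of 38.5% of its level (76.1 ± 3.26% to 46.8 ± 1.11%, mean ± SD, n = 3 in each group here and throughout). FAM50B, a retrogene on chromosome 6, went from 71.5 ± 1.81% to 46.7 ± 2.48%, a loss of 34.7%. At the other end, the interval of NAP1L5, a member of the nucleosome assembly protein family, went from 77.1% to 20.9%, a loss of 72.9%. The other intervals ended between 19.0% (NNAT) and 34.8% (L3MBTL1). No interval had overlapping groups, and each gave p = 0.1 in a two-sided exact permutation test, the smallest p that 3 libraries against 3 allow. How many intervals of other genes would do the same was not counted, so this is not particular to the members.

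These intervals held 502 tiles with 10 or more calls per library. Of these, 469 were lower in reset cells, 3 were higher and 30 did not pass the threshold (quasi-binomial model with limma-moderated dispersion, Benjamini-Hochberg adjusted p under 0.05 over all tiles). Among all tiles tested, 95.9% were lower and 0.737% were higher. The tiles that were higher lay in the DIRAS3, FAM50B and RB1 intervals, and their groups did not overlap. The tile chr1:68516001-68516500, which holds 1 of the 4 DIRAS3 transcription start sites (TSS), went from 38.7%, 34.7% and 33.7% to 71.0%, 54.2% and 71.6% (adjusted p = 2.84e-06, quasi-binomial model with limma). The tile chr6:3849501-3850000, at the FAM50B TSS, went from 12.9%, 15% and 10.1% to 37.1%, 27.5% and 31.5% (adjusted p = 0.000116, same model). The RB1 tile, chr13:49106001-49106500, lies within RB1 near the promoters of RCBTB2, the next gene, and went from 27.9%, 17.6% and 21.9% to 54.0%, 31.0% and 43.2% (adjusted p = 0.00188, same model). Without the third reset library 5 tiles were higher.

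**Figure D1:**
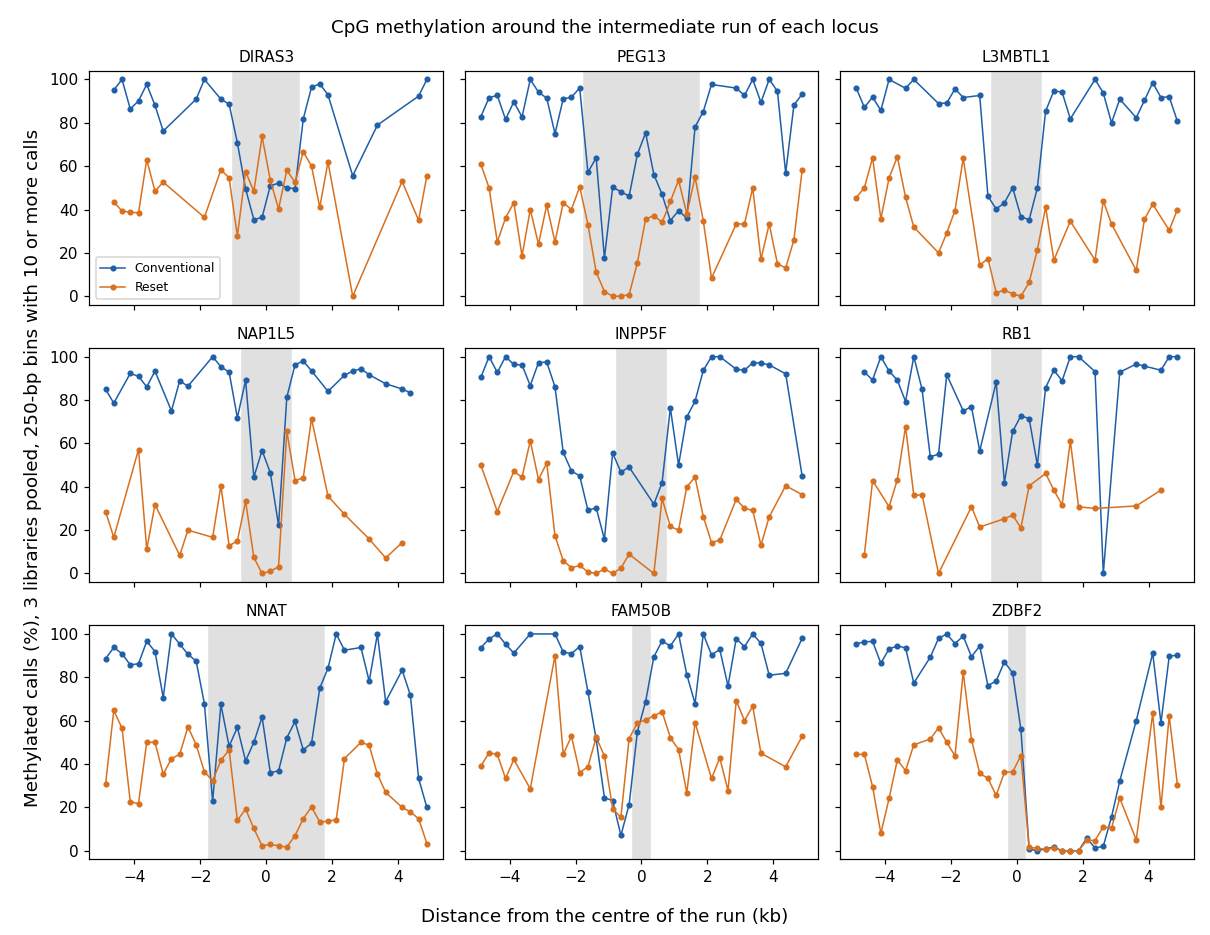
Percentage of methylated calls in 250-bp bins with at least 10 calls, against the distance in kb from the centre of the intermediate run of each of 9 loci, with the calls of the 3 conventional libraries (blue) and of the 3 reset libraries (orange) pooled and the run shaded. In the shaded run reset cells go to near 0 at L3MBTL1 (mean 3.10% over the run). At DIRAS3 (56.7%) and in the single FAM50B tile (59.6%) their means lie above those of the flanks, though a bin of the DIRAS3 run is at 27.8%.

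Promoters were taken at every annotated TSS, from 1000 bp before to 500 bp after it, and many of them overlap, so they are not independent. Of the 82 promoters of the members that could be tested, 64 were lower in reset cells, 3 were higher and 15 did not pass the threshold. Among all 211695 promoters tested, 80.9% were lower and 2.82% were higher, and the median change was a fall of 39.5 points. The 3 that were higher belonged to FAM50B and DIRAS3. With promoters of 500 bp on each side 9 of 81 were higher and 45 were lower. The share over all promoters at this width is not given here, so these counts cannot be set beside the shares above.

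Both FAM50B promoters were higher, but they share nearly all their CpGs and are in effect a single region. At the first, the levels were 23.6%, 33.0% and 25.2% in conventional and 39.6%, 40% and 34.6% in reset cells (27.3% to 38.1%, adjusted p = 0.0067, quasi-binomial model with limma), and at the second the mean went from 28.2% to 39.2% (adjusted p = 0.00486, same model). The reset libraries lay above the conventional ones at each. At DIRAS3 the promoter of the TSS at 68516310 on chromosome 1 went from 45.7%, 50.2% and 39.3% to 61.6%, 47.9% and 60.3% (adjusted p = 0.0078, same model). There the second reset library lay within the conventional range, and the call was lost without the third conventional library (a rise of 8.64 points, adjusted p = 0.0503, limma) or without the first reset library (9.05 points, adjusted p = 0.0734, limma). The other 3 DIRAS3 promoters stood at 62.2 to 63.8% in conventional against 55.2 to 55.5% in reset libraries and did not pass the threshold.

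The promoters of PEG13, a noncoding RNA transcribed from an intron of TRAPPC9, likewise did not pass it, at 46.2% against 43.5% (adjusted p = 0.637) and 45.9% against 44.4% (adjusted p = 0.833, quasi-binomial model with limma). The NAP1L5 promoter fell from 48.8%, 56.3% and 67.0% to 14.9%, 12.7% and 20.8% (adjusted p = 2.17e-07, same model). All 4 promoters of NNAT, which encodes the membrane proteolipid neuronatin, fell, for example from 46.6% to 15.5% (adjusted p = 3.24e-07, same model) and from 47.1% to 13.6% (adjusted p = 1.22e-07).

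INPP5F, which encodes an inositol phosphatase, had promoters of several kinds. All 21 were lower. The 13 at its upstream CpG island went from 4.17 to 6.78% down to 0.953 to 1.57%, while the 6 at its internal TSS were intermediate, at 33.0 to 35.7%, and fell to 1.23 to 1.76%. At the internal TSS at 121578198 on chromosome 10 the libraries went from 36.1%, 38.5% and 32.5% to 1.01%, 2.01% and 2.26% (adjusted p = 2.87e-10, quasi-binomial model with limma). L3MBTL1, which encodes a chromatin-compacting protein with MBT domains, had 32 promoters, of which 26 were lower. At its TSS at 42143109 on chromosome 20 the libraries went from 48.8%, 52.8% and 27.7% to 4.90%, 2.19% and 3.98% (adjusted p = 8.31e-08, same model), while the 6 at the upstream TSS stood at 12.6% and 14.1% (adjusted p = 0.515). With promoters cut to 500 bp on each side, the upstream L3MBTL1 promoter at 42136318 was higher by 5.85 points (adjusted p = 0.0234, same model), and the upstream INPP5F promoter at 121485794 no longer passed (adjusted p = 0.0905).

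RB1, the retinoblastoma cell cycle regulator, had 4 promoters at its main TSS with 7.36 to 7.61% in conventional and 2.24 to 2.30% in reset cells, and 4 internal ones that went from at least 82.3% to at most 28.1%. The fall at the main TSS rested on the outer part of the window, since with 500 bp on each side the promoter at 48877911 differed by −0.206 points (adjusted p = 0.828, quasi-binomial model with limma). ZDBF2, a zinc-finger gene, had 8 promoters, of which 4 were lower and 4, at 0.974 to 6.26% in conventional cells, did not pass the threshold.

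Tiles at 30 to 70% on average over the conventional libraries are called intermediate here. They were picked by their conventional level, so what became of them is described with no test of its own, and the tests of single tiles above come from the fit over all tiles. The 9 intervals held 44 intermediate tiles, of which 14 were still at 30 to 70% in reset cells (31.8%) and 30 were under 30%. Of 93117 intermediate autosomal tiles, 25.3% stayed in this range and 74.6% fell below it. Among tiles with at least 20 CpGs the members had 18, of which 7 stayed (38.9%) and 11 fell, beside 27.2% that stayed and 72.5% that fell among 5431 autosomal tiles. Under 5% in reset cells were 8 of these 18 member tiles (44.4%) and 21.3% of the autosomal ones, a difference that was not tested. Autosomal tiles over 70% in conventional cells had a median of 34.2% in reset cells, or 42.2% with at least 20 CpGs. A level of 30 to 70% in reset cells was thus also common for tiles that had not been intermediate. The loci differed among themselves. All 4 intermediate tiles of DIRAS3 and both of FAM50B stayed, all 3 of NAP1L5 and all 6 of INPP5F were below 30% on average, and PEG13 (3 of 6 stayed), NNAT (2 of 9), L3MBTL1 (1 of 6), RB1 (1 of 6) and ZDBF2 (1 of 2) were mixed.

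The tiles nearest to the bounds show how the choice worked. The tile of INPP5F at chr10:121578001-121578500, at 29.5% in conventional cells, was just outside and went to 0.385%. In ZDBF2 the tile chr2:207138501-207139000, at 69.4%, was just inside and went to 36.9%, and in RB1 the tile chr13:49026501-49027000, at 70.8%, was just outside and went to 16.6%.

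**Figure D2:**
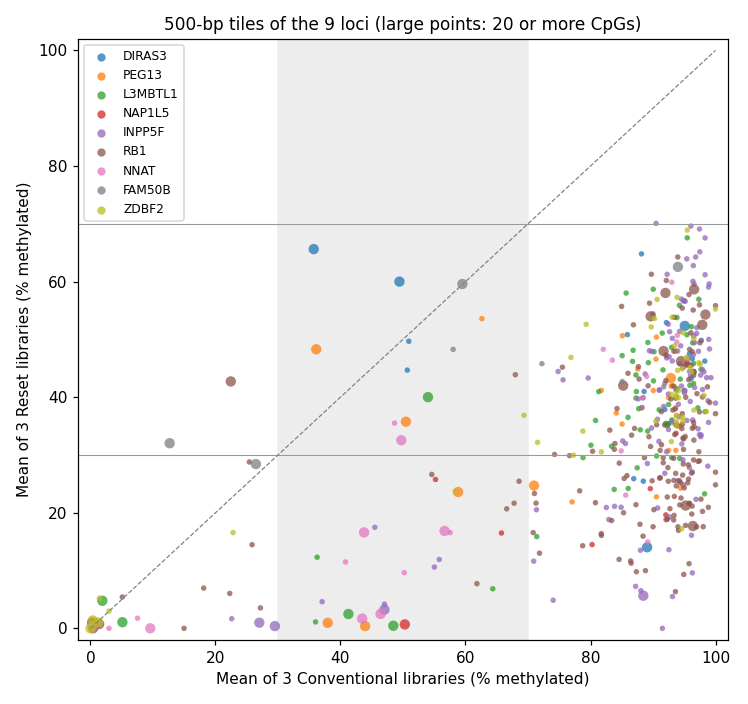
Mean level of the 3 reset libraries against that of the 3 conventional libraries, both in percent, for each tested 500-bp tile of the 9 intervals, coloured by locus, with large points for tiles of 20 or more CpGs, the intermediate range shaded and a dashed line of equality. Of the 44 intermediate tiles 14 remain between 30% and 70% in reset cells, among them all 4 of DIRAS3, and 30 lie below 30%.

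Neighbouring intermediate tiles were joined into runs, allowing 1 other tile between them, and the run of at least 2 intermediate tiles with the most CpGs was taken as the core run of a locus. Of the 7 loci with such a run, 2 kept a level of 30 to 70% in reset cells (DIRAS3 and RB1) and 5 lost it (PEG13, L3MBTL1, NAP1L5, INPP5F and NNAT), while FAM50B and ZDBF2 had single tiles only. The RB1 place in the first group is thin. Its run, chr13:49168501-49170000, holds 20 CpGs in an intron rather than in a CpG island, and went from 74.3%, 53.8% and 58.6% in the conventional libraries (mean 62.3%) to 24.3%, 36.4% and 31.0% in the reset libraries (mean 30.6%) beside 34.4% in its flanks. The groups did not overlap, so that the run was kept only in the sense of the 30% bound. Without the second reset library it was under 30%, and without the second conventional library another RB1 run at 9.78% in reset cells took its place. Without the first conventional library FAM50B gained a run, at 43.0% in reset cells. The INPP5F run held 16 CpGs and stood at 8.35% in reset cells, at 4.39% without the second and 4.61% without the first conventional library, which moved its bounds.

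The DIRAS3 run, chr1:68515501-68517500, spans 83 CpGs and 4 DIRAS3 TSS within an intron of GNG12-AS1. It stood at 39.6%, 55.2% and 39.4% in conventional cells and at 57.8%, 51.0% and 61.4% in reset cells (44.8 ± 9.08% and 56.7 ± 5.28%). The groups overlapped, and in reset cells the run was 3.78 to 22.3 points above its own flanks, which had fallen to 42.3%. Beside the tile named above, its other tiles stood at 50.9% in conventional and 49.7% in reset cells, 50.7% and 44.7%, and 49.4% and 60%.

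The FAM50B tile chr6:3850001-3850500, with 47 CpGs, stood at 67.0%, 54.6% and 56.8% in conventional and at 58.3%, 66.1% and 54.3% in reset cells (59.5 ± 6.61% and 59.6 ± 6.02%). The groups overlapped, and the reset level was 12.9 to 16.8 points above the flanks, which stood at 45.0%. In the 250-bp bin just before the tile pooled calls went from 21.3% to 51.7%, and in the bin just after it from 89.4% to 62.2%. The tile thus lay on a slope in conventional cells that was flatter in reset cells, and its equal means do not show an unchanged pattern.

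The L3MBTL1, NAP1L5 and NNAT runs were under 30% in every reset library. The L3MBTL1 run, chr20:42142501-42144000 with 77 CpGs, went from 46.3%, 49.6% and 27.7% to 3.65%, 3.32% and 2.34%, below its flanks at 37.1% in reset cells. The NAP1L5 run, chr4:89618001-89619500 with 65 CpGs in an intron of HERC3, went from 40.4%, 53.2% and 68.4% to 11.8%, 9.44% and 15.2%, with flanks at 26.3%. Its tile chr4:89619001-89619500 was uneven, at 19.6%, 76.5% and 69.6% in conventional and 36%, 16.3% and 25% in reset cells, and the groups overlapped. The NNAT run, chr20:36148001-36151500 with 189 CpGs, covers 4 TSS of NNAT and 3 of BLCAP, the gene in whose intron NNAT lies, and went from 50.4%, 52.8% and 41.9% to 11.6%, 17.6% and 17%. No conventional library overlapped a reset library in these 3 runs. Within the NNAT run the loss was uneven, since the tiles chr20:36149501-36150000 and chr20:36150001-36150500 went from 46.4% to 2.49% and from 43.5% to 1.69%. At its other end the tiles chr20:36148001-36148500 and chr20:36148501-36149000 stood at 48.6% and 49.7% in conventional and at 35.5% and 32.6% in reset cells, with overlap between the groups.

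PEG13 was split. Its run, chr8:141108001-141111500 with 207 CpGs, went from 52.1%, 47.0% and 53.1% to 30.1%, 21.4% and 18.2%, so that the first reset library was at the bound, and this mean hides a pair of parts that behaved differently. The tiles from 141108501 to 141109500, with 71 CpGs, went from 45.8%, 41.9% and 34.1% to 1.30%, 0.578% and 0%. The tiles from 141110001 to 141111500, with 79 CpGs around the PEG13 TSS, stood at 49.5%, 44.2% and 48.5% and at 48.5%, 43.7% and 35.7% (47.4 ± 2.85% and 42.6 ± 6.48%), and the groups overlapped. The rest of the run, at its start and between these parts, belonged to neither. Its 250-bp bins stood at 57.1 to 75.3% in conventional and at 11.1 to 35.6% in reset cells, with calls pooled. The parts were separated after the values had been seen, by their reset level, as tiles under 5% and tiles at 30% or more. Their reset levels, and the overlap of groups on the promoter side, therefore follow in part from this choice. The flanks of the run stood at 38.3% in reset cells. The promoter-side tiles stood at 50.5% in conventional and 35.8% in reset cells, 36.1% and 48.3%, and 62.6% and 53.6%. The first of these is among the tiles that were lower in the fit over all tiles.

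Because the runs were chosen by level, the loci were also read over stretches chosen by sequence alone, as adjacent tiles with at least 20 CpGs each, a choice made after the values had been seen. The 9 intervals held 22 such stretches, and of the 20 that could be tested 13 were lower in reset cells, 2 were higher (in DIRAS3 and RB1) and 5 did not pass the threshold. Of 59709 such stretches tested in the genome 75.3% were lower and 5.49% were higher. Those named below were picked partly by their conventional level, and several share tiles with the runs. Their tests are therefore no separate support for the sorting of the runs.

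The FAM50B stretch, chr6:3849001-3851000 with 153 CpGs, covers both TSS and most of the gene and lies within introns of 2 long noncoding RNA genes. It stood at 46.2%, 49.7% and 48.2% in conventional and at 45.7%, 53.7% and 47.1% in reset cells, a difference of 0.780 points (adjusted p = 0.743, quasi-binomial model with limma), and the groups overlapped. This equality came from tiles that moved apart, since the tile at the TSS rose as given above and the tile chr6:3850501-3851000 fell by 31.4 points (adjusted p = 8.04e-06, same model). At DIRAS3 the tile that rose is itself such a stretch and was higher in this fit too (adjusted p = 0.000228, same model). This tests the same calls again and is no second result. The stretch chr1:68517001-68517500, with the other 3 TSS, stood at 35.1%, 64.6% and 48.6% and at 50%, 80% and 50% (adjusted p = 0.666, same model). The other stretches of DIRAS3, away from its TSS, fell, from 89.1% to 14% at chr1:68510501-68511000 (adjusted p = 4.77e-06, same model) and from 95.1% to 52.3% at chr1:68512501-68513000 (adjusted p = 1.46e-05).

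In NAP1L5, INPP5F and L3MBTL1 the stretch at a middle level in conventional cells went nearly to 0. The NAP1L5 stretch, chr4:89618501-89619000 with 30 CpGs, went from 44%, 49% and 57.9% to 0%, 0% and 2.04% (adjusted p = 2.75e-06, quasi-binomial model with limma). The INPP5F stretch, chr10:121577501-121578500 with 85 CpGs and 3 internal TSS, went from 37.3%, 39.2% and 36.4% to 1.21%, 2.33% and 1.10% (adjusted p = 1.11e-07, same model). The L3MBTL1 stretch, chr20:42142501-42143500 with 60 CpGs, went from 45.6%, 58.6% and 27.0% to 0.917%, 0.641% and 2.26% (adjusted p = 1.63e-05, same model). Other stretches of these loci varied. INPP5F chr10:121554001-121555500 went from 93.8% to 32.1% (adjusted p = 2.94e-06, same model) and L3MBTL1 chr20:42135501-42137000 stood at 11.6% and 11.7% (adjusted p = 0.98). INPP5F chr10:121485001-121486500, already low in conventional cells, went from 6.02% to 0.938% (adjusted p = 0.00258, same model). The NNAT stretch, chr20:36148501-36150500 with 134 CpGs, went from 46.4%, 53.6% and 40.1% to 11.2%, 13.8% and 16.5% (adjusted p = 1.80e-06, same model).

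The PEG13 stretch, chr8:141107501-141111000 with 226 CpGs, takes in both of its parts and went from 54.7% to 24.9% (adjusted p = 3.07e-06, quasi-binomial model with limma), with no overlap.

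The RB1 and ZDBF2 stretches were at the ends of the scale in conventional cells. RB1 carries an imprinted CpG island in an intron, derived from the pseudogene PPP1R26P1. The stretch over it, chr13:48891001-48896000 with 276 CpGs, was nearly fully methylated in conventional cells, at 96.1%, 93.6% and 95.1%, and fell to 43.4%, 49.3% and 42.0% (adjusted p = 8.28e-09, quasi-binomial model with limma). The RB1 stretch that was higher, chr13:49106001-49107500 at the RCBTB2 promoters, went from 7.97% to 14.5% (adjusted p = 0.00725, same model). The ZDBF2 stretch over 6 TSS, chr2:207139001-207140500 with 130 CpGs, was nearly unmethylated in both groups, at 0.557% and 0.828%, and did not pass the threshold.

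**Figure D3:**
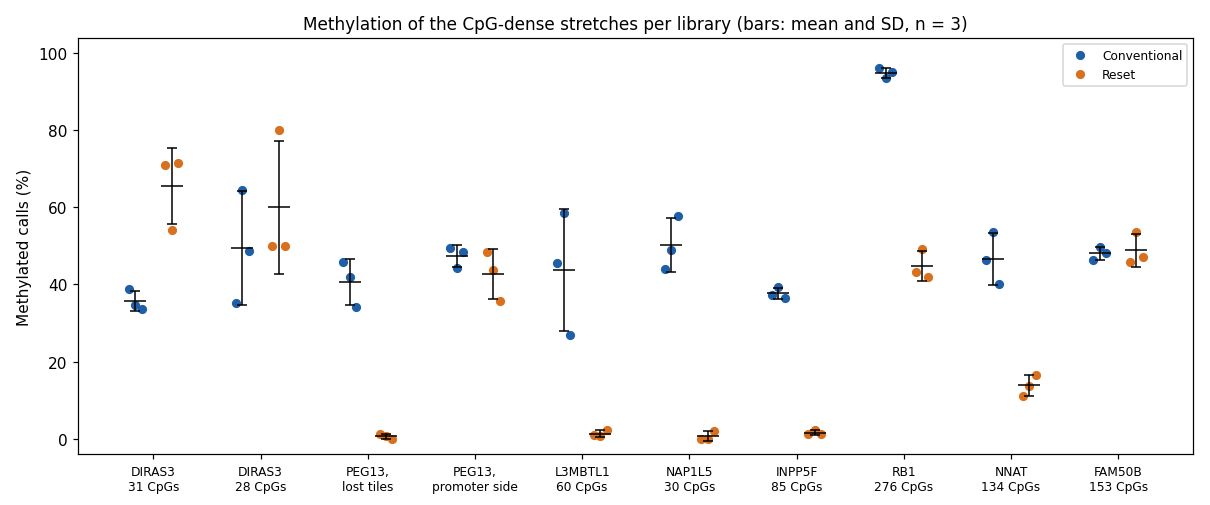
Methylation level in percent of CpG-dense stretches or parts of the loci, with a point for each of 3 conventional and 3 reset libraries. Bars give the mean and SD. The stretches were picked by their conventional level and the PEG13 parts by their reset level, so not every stretch or locus is shown. The groups overlap at FAM50B, and the NAP1L5, INPP5F and L3MBTL1 stretches lie under 3% in every reset library.

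A middle level can be made of fully methylated and fully unmethylated molecules or of molecules methylated at some sites. The files give no reads, so pairs of adjacent CpG cytosines on 1 strand at most 30 bp apart, with exactly 1 call each in a library, were used, since such calls most likely come from 1 read. Several pairs can come from the same read, so pairs are not independent and a few molecules can set a share. In the core runs of the members in conventional cells, 90.8% of 863 pairs were in the same state, against 49.1% for pairs of calls at these sites taken from different libraries. In intermediate autosomal tiles with at least 20 CpGs the share was 79.3%, against 63.7% across libraries. In reset cells 86.9% of 871 pairs in the core runs were in the same state, against 77.3% across libraries, where only 23% of the calls were methylated.

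In DIRAS3, FAM50B and the promoter side of PEG13, which on average stayed at 30 to 70%, the pooled share was lower in reset cells, and the share across libraries moved with it at DIRAS3 and FAM50B. In the promoter-side part of PEG13 it was 87.8%, 93.5% and 91.1% in conventional and 71.4%, 68.8% and 74.6% in reset libraries, with no overlap, beside 49.2% and 50.3% across libraries. In the FAM50B stretch it was 88.8% of 250 pairs and 73.0% of 270 pairs, beside 72.3% and 56.3% across libraries, so that the share stood above its across-library value by a like amount in both groups. In the DIRAS3 run it was 89.0% of 82 pairs and 78.6% of 103 pairs, beside 62.2% and 55.8% across libraries. At FAM50B and DIRAS3 the libraries of the groups overlapped (64.5 to 93.3% in reset cells for DIRAS3). In the DIRAS3 run in reset cells 65 pairs were both methylated, 16 were both unmethylated and 22 were mixed. The RB1 core run had few pairs, with 57.1% of 14 in the same state in conventional and 75% of 12 in reset cells. The RB1 stretch, which came from near-full methylation, stood at 74.3% in reset cells, beside 55.3% across libraries. For comparison, autosomal tiles with at least 20 CpGs stood at 71.3% in reset cells when they were intermediate in both groups (54.6% across libraries) and at 70.2% when they were intermediate in reset cells after being over 70% in conventional cells (52.2% across libraries). In the INPP5F stretch, where 2.8% of the calls in reset cells were methylated, the share was 94.4%, beside 87.3% across libraries. In the whole PEG13 run, where 25.4% were, the conventional libraries lay between 91.4 and 93.9% and the reset libraries between 81.9 and 84.4%, with no overlap, beside 56.8% and 73.3% across libraries.

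**Figure D4:**
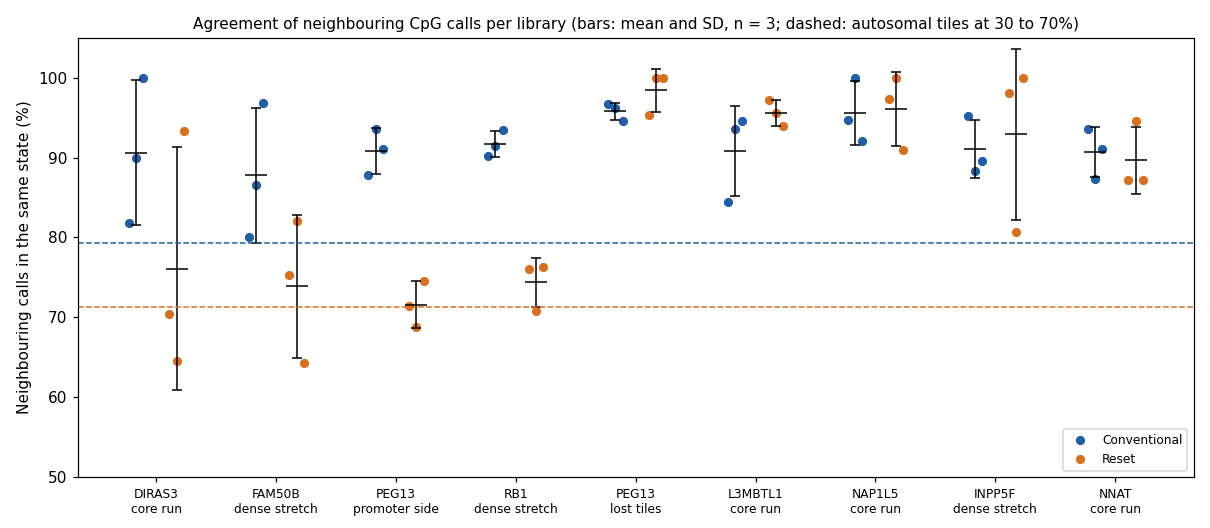
Percentage of neighbouring CpG calls in the same state, for pairs at most 30 bp apart with 1 call each, in regions of the members, with a point per library, bars for the mean and SD of 3 libraries and an axis that starts at 50%. Dashed lines mark autosomal tiles with at least 20 CpGs, at 79.3% (intermediate, conventional cells) and 71.3% (intermediate in both groups, reset cells). At the PEG13 promoter side the 3 reset libraries, at 68.8 to 74.6%, lie below the 3 conventional ones, at 87.8 to 93.5%, while at DIRAS3 and FAM50B the groups overlap. The PEG13 parts were picked by their reset level.

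TGCCGC was found in 13 of the 18 intermediate member tiles with at least 20 CpGs (72.2%), counted on both strands, beside 27.3% of the 123005 tiles of the genome with as many CpGs and 26.5% of the intermediate autosomal ones. It was present in 4 of the 7 tiles that stayed and in 9 of the 11 that fell. In the core runs it occurred 3 times in 2000 bp at DIRAS3, 11 times in 3500 bp at PEG13, 8 times in 3500 bp at NNAT, 6 times in 1500 bp at NAP1L5, 2 times in 1500 bp at L3MBTL1 and 0 times in 1500 bp at both INPP5F and RB1. The single tiles of 500 bp held 2 at FAM50B and 0 at ZDBF2, and the INPP5F stretch of 1000 bp held 5. A match is a description of the sequence and says nothing of binding in these cells.

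The same procedure was applied to 12 other imprinted loci for comparison. Of the 11 with a core run, MEST, ZNF597 and PEG3 kept a level of 30 to 70% in reset cells (37%, 52.1% and 41.2%) and 8 lost it, from 0.333% at PEG10 to 29.2% at KCNQ1OT1. In reset cells the flanks of the MEST, ZNF597 and PEG3 runs stood at 32.0%, 31.6% and 35.8%. The PEG3 run holds only 25 CpGs, while its 10 promoters were all lower and ended at 0.602 to 45.6%. At KCNQ1OT1 the first reset library stood at 41.4%, above the bound. Of the 7 members with a run 2 kept it, among them RB1 with a run far from its imprinted island. Whether these shares differ was not tested.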

How the data were processed

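Bisulfite-converted DNA of 6 H9 libraries was sequenced. Per the labels the authors used Trim Galore for trimming and Bismark for alignment to GRCh37. The deposited counts give, for every CpG cytosine, how many calls were methylated and how many were not, without normalization. The deposited percent is the methylated share of these calls and served only as a check. Removal of duplicate reads is not given in the sources used here, and intervals of levels would cover counting error only.

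Positions in the files are counted from 0, and printed coordinates from 1. Calls of both strands were added up over tiles of 500 bp, over promoters (1000 bp before to 500 bp after each TSS of GENCODE release 44, GRCh37 version) and over longer stretches. A level is the percentage of methylated calls of a library, and means and SDs are over 3 libraries. Features with 10 or more calls per library were fitted with a quasi-binomial logistic model of group, with dispersions squeezed by limma 3.58.1 (R 4.3.3) and kept at 1 or more. The likelihood-ratio F test was adjusted by the Benjamini-Hochberg method over all features of a kind, with a threshold of 0.05. The test was tried on simulated data, where it missed many changes in tiles. Among CpG-dense tiles its false calls passed the share that the threshold allows. Single levels were compared with two-sided exact permutation tests. Intermediate means 30 to 70%, and core runs keep (30 to 70%) or lose (under 30%) this level in reset cells.

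The members, lists and tests were chosen with earlier results of these data known. CpG-dense stretches, single-tile runs, parts of PEG13, agreement by library, agreement across libraries and dispersions squeezed to a trend over depth were choices made once values were known. Genes were named where they are members or lie over a core run, tiles and promoters where they lie in a core run or had the largest change of a locus in a direction with no overlap between groups, and others (near the bounds, at TSS, outside the core) were chosen after their values were seen. Alternatives were other bounds, tile sizes, promoter widths and call minima, Fisher's exact test on pooled calls, a replicate block and leaving out each library. The DIRAS3 sequence is not printed because its run overlaps annotated UTRs.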

Additional observations from a re-analysis of the deposited data

How the results depend on the processing

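The replicate numbers of the groups gave no sign of pairing. Over promoters, deviations of same-numbered libraries from their group means correlated at −0.0048, 0.0014 and −0.00078. Counting error at this depth could hide a pairing, so these values cannot exclude it. With the replicate block 64 promoters were lower and 3 higher, 456 tiles lower and 3 higher, and 13 stretches lower and 2 higher, so no count moved by over 1.5 times. With promoters of 500 bp on each side 9 were higher. With at least 30 calls 47 tiles were lower (72 tested), with at least 5 calls 807 (847 tested), and with Fisher's exact test of summed calls 5 were higher. Shares of calls over all features are not given for these settings. Leaving out 1 library each, 3 to 5 tiles were higher. The loci whose run kept its level numbered 1 with bounds of 35 to 65%, 1 with tiles of 1000 bp, 1 with at least 30 calls, 4 with single-tile runs allowed and 1 to 3 with 1 library left out, when 4 to 6 lost it. The share of autosomal intermediate tiles that stayed was 38.9% with bounds of 25 to 75%, 15.5% with 35 to 65%, 22.2% with 1000-bp tiles, 21.1% with at least 30 calls and 25.5 to 26.3% with 1 library left out. That of the members was 29.5 to 34.1% with 1 library left out. The members' share under the other settings is not given here, so it cannot be set beside the autosomal share there. Pairs at most 15 bp apart agreed in 93.1% in conventional cells. Dispersions squeezed to a trend left the counts of calls at 64 and 3 promoters, 469 and 3 tiles and 13 and 2 stretches. The DIRAS3 run kept its level under each setting that applied to runs, at 54.4 to 59.6% in reset cells with 1 library left out. At 2.51 to 3.49 calls per CpG no tile can be called unchanged because its test missed the threshold.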

Other observations

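The promoters of proteins that are known to guard imprints were read as a list. Of 106 promoters of ZFP57, ZNF445, TRIM28, SETDB1, DNMT1, UHRF1, DPPA3 and CTCF, 98 were lower in reset cells, 0 were higher and 8 did not pass the threshold, beside 80.9% lower and 2.82% higher among all promoters (quasi-binomial model with limma). DNMT1 alone held 43 of the 106, all lower and many at TSS inside the gene, so the count is not one of genes. The promoters of ZFP57 at 29648929 and 29648932 on chromosome 6 share nearly all their CpGs and went from 91.5%, 97.0% and 97.6% to 7.23%, 9.19% and 18.4% (adjusted p = 3.14e-11). The promoter of DPPA3, a maternal factor that protects methylation in the early embryo, went from 74.3%, 73.7% and 91.5% to 5.38%, 0% and 7.87% (adjusted p = 2.27e-09, same model). The promoters of CTCF at 67596429, UHRF1 at 4910158 and TRIM28 at 59056534 were at most 2.97% on average in both groups and did not pass the threshold, while others of these genes nearby were lower, at CTCF 67596370 (3.01% to 0.690%), UHRF1 4909442 (21.8% to 9.34%) and TRIM28 59055431 (14.6% to 2.40%). Transcript levels were not analysed here.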
